A study of Mus musculus with 18 samples.

Results

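Single-exon circles are circular RNAs that lie within 1 exon of a gene. They were taken here as the circles that the authors' deposited table annotates as single-exon. This gave 271 of 7391 circles (3.67%), from 257 host genes, holding 4958 of 98762 circle counts (5.02%). The stated length of 271 of 271 single-exon circles equalled the genomic distance between their ends, so it leaves out no intron. This was so for 0 of the 5805 circles made of several annotated exons. Length and annotation come from the same deposited table, so this is no independent check of the inside of a circle. The files give no exon borders, so whether a circle covers its whole exon was not analysed here.

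Circular RNAs form when a splice donor is joined backwards to an acceptor that lies upstream of it, a step called back-splicing. A closed ring has no free end for exonucleases, so circles are stable and can gather where linear RNA turns over. The testis, where germ cells pass through meiosis and reshape into sperm, is known as a tissue with many circular RNAs. Where a single-exon circle is a whole exon, the donor and the acceptor flank that exon. Exons that circularise alone are known to be longer than most. The circles annotated as single-exon may also include pieces that lie inside an exon, as the short separate circles of Malat1, Akap12 and Chd4 may be. This was not tested.

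RNA was measured by sequencing in whole testis of adult C57BL/6 mice with a Taf7l knock-in allele or the wild-type gene. Taf7l is X-linked and encodes a germ-cell relative of a TFIID subunit, and the base change of the allele is not given in the sources used here. The 3 knock-in libraries held 16185, 16350 and 20127 circle counts, against 17306, 14381 and 14413 in the 3 wild-type libraries. The 12 samples of pachytene spermatocytes and round spermatids from the same 2 genotypes were not analysed here.

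No label ties a library to its own animal. The p-values below therefore rest on the spread among these libraries, which may in part be technical. Taf7l mRNA was counted 472, 525 and 581 times in knock-in libraries and 507, 551 and 531 times in wild-type libraries. Summed markers of spermatids were 3612 to 4600 CPM (counts relative to library size) in the knock-in and 4195 to 5025 CPM in the wild type. Those of spermatocytes were 5339 to 5756 CPM in the knock-in and 5670 to 5915 CPM in the wild type, so the libraries carried the RNA of testis. Both sums hide opposite directions. Log2 fold changes of spermatid markers, knock-in over wild type, were -0.31 in Prm1, 0.53 in Tnp1 and -0.06 in Acrv1. None of these passed the test (edgeR adjusted p = 0.303, 0.0859 and 0.797). Those of spermatocyte markers were -0.14 in Ldhc, 0.14 in Hspa2 and -0.02 in Sycp3. They did not pass either (edgeR adjusted p = 0.492, 0.328 and 0.943). The epididymal marker Crisp1 was uneven, with 173, 1 and 1 counts in knock-in libraries and 3, 225 and 3 in wild-type libraries. The other epididymal markers listed did not share these peaks. Rnase10 had 124, 120 and 120 counts in knock-in libraries and 180, 168 and 137 in wild-type libraries. Lcn8 and Lcn5 had 0 counts in every library, and Defb20 had 0 to 4. In whole testis, fewer cells of a type and less RNA per cell cannot be told apart.

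For 6 single-exon circles a RefSeq transcript start lies close enough to the circle's first base for the genomic sequence there to be read. They are shown because they display the bases directly before the circle, where the acceptor of a back-splice is looked for. Each line runs 5′ to 3′ on the strand of the gene, with 40 bases before the circle and its first 20 bases. The capitals mark the last 2 bases before the circle, and sequences are those of RefSeq on build GRCm38 (mm10).
Arhgap5, chr12:52516039-52516098, plus strand: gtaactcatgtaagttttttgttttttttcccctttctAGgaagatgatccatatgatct
Chd9, chr8:90932209-90932268, plus strand: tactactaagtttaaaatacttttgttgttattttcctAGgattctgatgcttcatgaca
Harbi1, chr2:91712040-91712099, plus strand: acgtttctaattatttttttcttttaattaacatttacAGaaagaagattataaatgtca
Sipa1l2, chr8:125492814-125492873, minus strand: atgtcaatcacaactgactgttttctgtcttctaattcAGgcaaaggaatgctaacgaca
Scn8a, chr15:100936231-100936290, plus strand: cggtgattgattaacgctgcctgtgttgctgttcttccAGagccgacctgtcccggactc
Sephs2, chr7:127274023-127274082, minus strand: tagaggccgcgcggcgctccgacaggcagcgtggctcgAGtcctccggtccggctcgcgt

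All 6 circles began directly after AG, the letters of a splice acceptor. The same was found in 84 of 84 circles of all types whose first base such a sequence covers, so AG does not set single-exon circles apart. The circle caller is not given, so whether it required AG is not known, and nothing is read from this share. In the 32851 RefSeq start windows of 300 bases, AG stood directly before the transcript start in 6.07%. Acceptors are usually preceded by a run of C and T, and in the 20 bases before AG these made up 95% in Arhgap5, 80% in Chd9 and Sipa1l2, 75% in Scn8a and 70% in Harbi1. The Sephs2 circle, with 45% and 2 counts in all, had the lowest value of the 6. Their median was 77.5%, against 75% over the 84 circles and 50% at the same place in all windows.

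These 6 sites are a particular subset, since each lies where RefSeq also starts a transcript of the host. The RefSeq start fell on the circle's first base in Chd9, Harbi1, Sipa1l2 and Scn8a. It lay 2 bases before it in Arhgap5, and 17 bases before it in Sephs2. In both of these the marked AG therefore lies within the RefSeq transcript, and whether it serves as an acceptor was not tested. The circle of Arhgap5, described with the most counted circles, had 44 counts, and the other 5 had 21 or fewer. That of Chd9, a chromatin remodeller, had 3, 7 and 0 counts in knock-in and 4, 0 and 7 in wild-type libraries. That of Harbi1, a gene derived from a transposase, had 1, 0 and 1 in knock-in and 2, 2 and 0 in wild-type libraries. Sipa1l2, a Rap GTPase-activating protein, had 3, 2 and 0 in knock-in and none in wild-type libraries. Scn8a, a sodium channel, and Sephs2, an enzyme of selenium metabolism, had no knock-in count and 3 and 2 counts in 1 wild-type library each. In Tulp4 and Plce1 the start lay inside the circle, 937 and 282 bases after its first base.

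Counts were concentrated in few single-exon circles. The circle of Tulp4, a member of the tubby-like protein family, made up 23.2% of all single-exon circle counts. The 5 highest made up 43.2% and the 20 highest 61.9%. At the other end, 189 of the 271 had fewer than 10 counts over the 6 libraries and 66 had 2, the lowest total in the deposited table. A share of 17.3% was detected in all 6 libraries, against 16.2% of circles of several exons, and 32.8% against 25.9% were seen in 1 library.

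The Tulp4 circle (1946 bases, chr17:6137211-6139156, plus strand) was counted 172, 198 and 205 times in knock-in libraries and 207, 193 and 175 times in wild-type libraries. It was the circle with the second highest count of all 7391, and the genotypes overlapped. Its fitted log2 fold change, knock-in over wild type, was -0.16 ± 0.13 (standard error; 95% interval -0.43 to 0.10; edgeR adjusted p = 0.980). Tulp4 gave 12 circles, and the single-exon circle held 77.7% of their counts.

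The Stk35 circle (750 bases, chr2:129810488-129811237, plus strand) came next among single-exon circles, from a gene for a nuclear serine/threonine kinase. It had 72, 35 and 57 counts in knock-in libraries and 53, 54 and 31 in wild-type libraries. It was the only circle listed for its gene. The genotypes overlapped over most of their range.

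The Pwwp2a circle (944 bases, chr11:43704534-43705477, plus strand) comes from a gene for a chromatin protein that binds the histone variant H2A.Z. Its counts were 46, 51 and 53 in knock-in libraries and 53, 40 and 35 in wild-type libraries. They overlapped, with a log2 fold change of 0.07 ± 0.22. Of 5 circles listed for Pwwp2a, it held 90.6% of the counts. Leaving out each library in turn gave values of 0.01 to 0.16.

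The Tcf20 circle (5772 bases, chr15:82851513-82857284, minus strand) was the longest of the 271. Tcf20 encodes a transcriptional coregulator. The circle had 50, 48 and 61 counts in knock-in libraries and 36, 41 and 28 in wild-type libraries, so every knock-in library lay above every wild-type library. The log2 fold change was 0.43 ± 0.23 and did not pass the test (unadjusted p = 0.065, edgeR adjusted p = 0.980). Its level in counts per 1000000 mRNA counts was 2.69 ± 0.152 in the knock-in (SD, n = 3). It was 1.91 ± 0.302 in the wild type (SD, n = 3). The exact two-sided permutation p was 0.1, the smallest that 3 against 3 allows. The same exact permutation test gave p = 0.2 in Smyd4, 0.3 in Tulp4 and 0.5 in Pwwp2a, Kat6b and Ep400. The exact permutation test gave p = 0.7 in Tbc1d14, 0.8 in Ttll3 and 0.9 in Stk35 and Zfp516. The value of Tcf20 was thus the lowest among these circles. A second Tcf20 circle of 5866 bases, made of several exons, had 33, 39 and 31 counts in knock-in libraries and 34, 27 and 33 in wild-type libraries, which overlapped. The difference between these 2 circles was not tested.

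The Kat6b circle (873 bases, chr14:21516626-21517498, plus strand) comes from a histone acetyltransferase gene. It had 14, 28 and 29 counts in knock-in libraries and 26, 20 and 33 in wild-type libraries, with a log2 fold change of -0.34 ± 0.30. The Ep400 circle (1370 bases, chr5:110755397-110756766, minus strand) comes from the gene for the motor of a chromatin remodelling complex. It had 18, 19 and 34 counts in knock-in libraries and 22, 16 and 14 in wild-type libraries, with a log2 fold change of 0.27 ± 0.33. Both overlapped between genotypes. The value of Kat6b was -0.08 without knock-in replicate 1 and -0.07 without wild-type replicate 3, and that of Ep400 was 0.06 without knock-in replicate 3. They differed in their place within the host: the Kat6b circle held 88.8% of its gene's circle counts, and the Ep400 circle 6.33%, since a circle of several exons and 1481 bases led at that gene with 1773 counts.

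**Figure D1:**
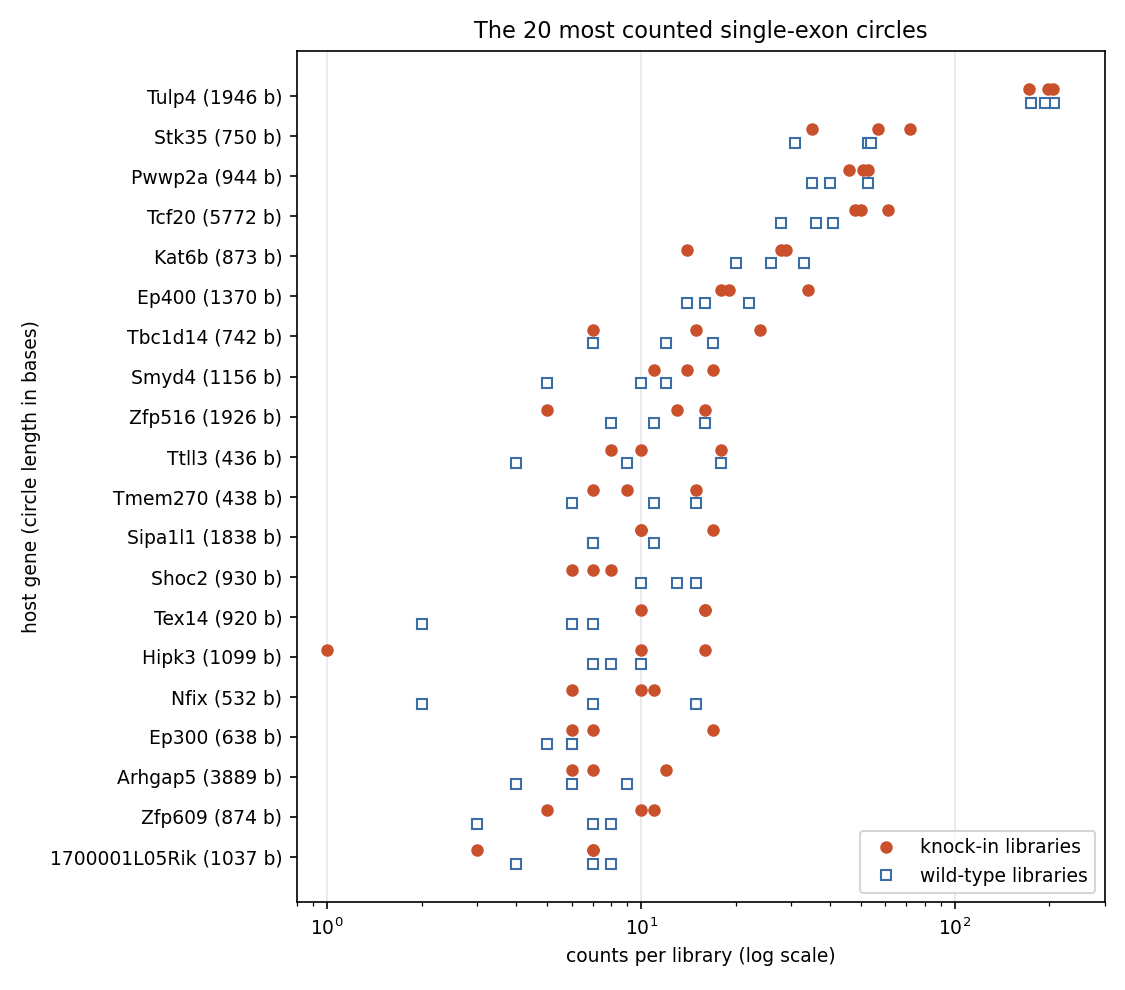
Counts per library (log scale) of the 20 single-exon circles with the highest mean CPM. Filled circles are the 3 knock-in libraries and open squares the 3 wild-type libraries, and equal values cover each other. Tulp4 stands apart near 200 counts, Stk35, Pwwp2a and Tcf20 lie between 28 and 72, and below Ep400 the counts stay at 24 or fewer.

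Among the other 14 of the 20 most counted circles, several hosts are known for circles in other work. Hipk3, a homeodomain-interacting kinase whose exon circle is among the best studied in human cells, had a circle of 1099 bases with 16, 1 and 10 counts in knock-in libraries and 7, 10 and 8 in wild-type libraries. Zfp609, whose circle was studied in myoblasts, had 874 bases with 11, 10 and 5 counts in knock-in and 8, 7 and 3 in wild-type libraries. Sipa1l1, a Rap GTPase-activating protein, had 1838 bases with 17, 10 and 10 counts in knock-in and 11, 7 and 7 in wild-type libraries. In each of the 3 the genotypes overlapped. Hipk3's second knock-in library was the lowest of the 6 by far.

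Of the 19 genes listed as well-described circle hosts, 8 hosted a single-exon circle and 10 a circle of several exons. The 8 were Tulp4, Sipa1l1, Hipk3, Zfp609, Cdyl, Slc8a1, Hipk2 and Fbxw7. Cdyl, a chromodomain protein, had 3, 3 and 4 counts in knock-in libraries and 3, 1 and 2 in wild-type libraries. Slc8a1, the sodium-calcium exchanger, had 2, 2 and 2 in knock-in and 5, 2 and 0 in wild-type libraries. Hipk2 had 10 counts in all and Fbxw7, an F-box protein, 4.

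The remaining circles of the top 20 came from genes of varied function. Tbc1d14, a regulator of autophagy, had 24, 7 and 15 counts in knock-in and 17, 7 and 12 in wild-type libraries. Smyd4, of the SET and MYND domain family, had 11, 14 and 17 in knock-in and 12, 5 and 10 in wild-type libraries. Ttll3, a tubulin glycylase, had 10, 18 and 8 in knock-in and 18, 9 and 4 in wild-type libraries. All 3 overlapped between genotypes. The ranges of Zfp516, a zinc finger factor, were 5 to 16 in knock-in and 8 to 16 in wild-type libraries. Those of Tmem270, a transmembrane protein gene, were 7 to 15 in knock-in and 6 to 15 in wild-type libraries. Nfix, a transcription factor, ranged from 6 to 11 in knock-in and from 2 to 15 in wild-type libraries, and Arhgap5 from 6 to 12 in knock-in and from 4 to 9 in wild-type libraries. The circle of 1700001L05Rik had 3 to 7 counts in knock-in and 4 to 8 in wild-type libraries, a log2 fold change of -0.35 ± 0.65.

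Single-exon circles were shorter than circles of several exons in the middle of their distribution. Their median length was 481 bases (110 to 5772), against 783 bases for circles of several exons. The class up to 300 bases held 35.4% of single-exon circles and 5.74% of circles of several exons. The shortest were in Pik3r3 (110 bases, 2 counts), a regulatory subunit of phosphoinositide 3-kinase, Mdn1 (139 bases, 6 counts, all in 1 knock-in library), a ribosome assembly ATPase, and Catsperb (150 bases, 6 counts), a subunit of the sperm calcium channel. After Tcf20, the longest were in Arhgap5 (3889 bases, 44 counts) and Akap6 (3388 bases, 7 counts), an A-kinase anchoring protein.

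Short single-exon circles were rarely counted in every library. Of the 96 circles of up to 300 bases, 2.08% were detected in all 6 libraries, with 4.81 counts per circle over the 6 libraries. The share was 15.9% of the 44 circles of over 300 to 500 bases and 31.0% of the 71 circles of over 500 to 1000 bases. It was 28.3% of the 46 circles of over 1000 to 2000 bases and 21.4% of the 14 longer ones. Mean counts per circle were 23.6 at over 500 to 1000 bases, and 43.4 at over 1000 to 2000 bases, or 18.8 there without Tulp4. These are descriptions over circles that share the same libraries.

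**Figure D2:**
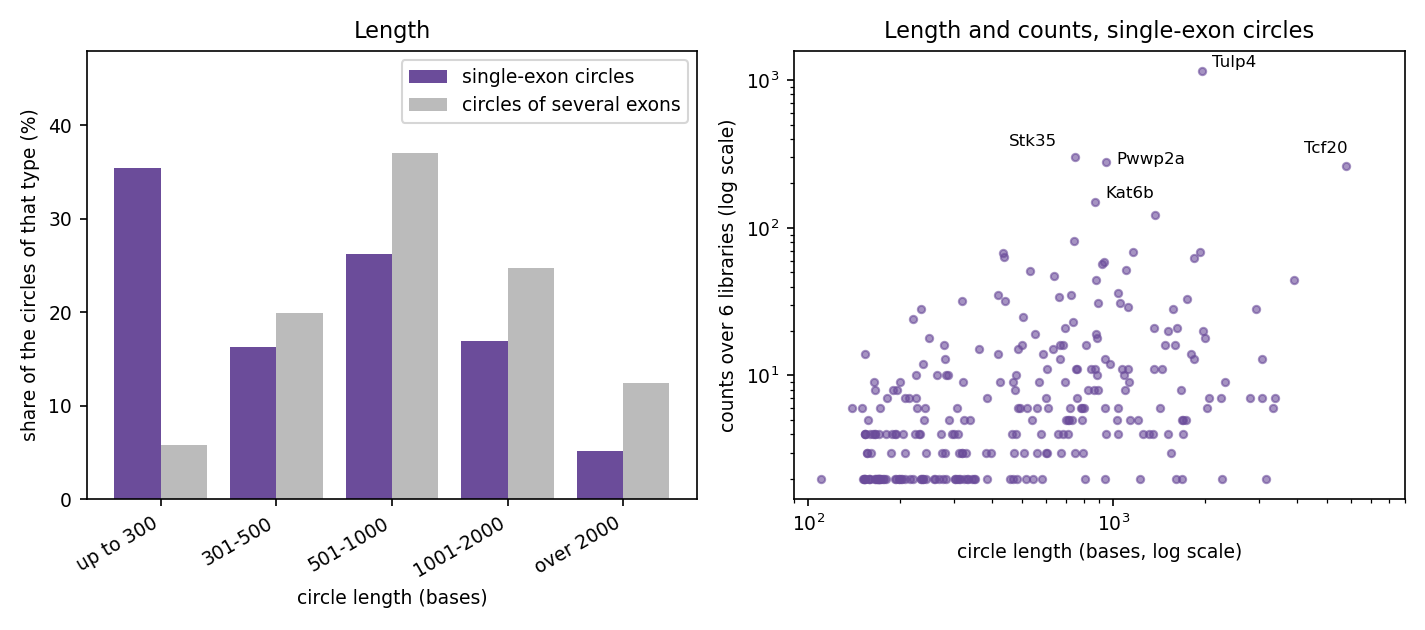
Left, the share (%) of single-exon circles (purple) and of circles of several exons (grey) in each class of length in bases; right, counts over the 6 libraries against length for the 271 single-exon circles, both axes on a log scale. The class up to 300 bases holds 35.4% of single-exon and 5.74% of the other circles, and the 5 most counted circles lie at 750 bases or more.

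A share of 30.6% of single-exon circles (83 of 271) had a 5′ or 3′ end in common with another circle of the table, against 59.5% of circles of several exons. Of the 83, 49 shared the 5′ end alone, 22 the 3′ end alone and 12 both. By length the share was 22.9% up to 300 bases, 22.7% at over 300 to 500, 42.3% at over 500 to 1000 and 35.0% above 1000 bases. Where the host gene had another circle, the share was 57.7% of 142 single-exon circles and 75.6% of 4569 circles of several exons. A match to a catalogue of mouse circles was given in the deposited table for 35 single-exon circles (12.9%), against 3.76% of circles of several exons. The match is loose: 11 of the 35 carried an identifier that stood on other circles too, and that of Tulp4 stood on 4.

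A share of 47.6% of single-exon circles (129) was the only circle listed for its gene, against 21.3% of circles of several exons. The other 142 came from genes with further circles. In 56 of the 142 the single-exon circle had the highest count of its gene, 7 of these in a tie. Within the top 20, Stk35, Smyd4, Zfp516, Ttll3, Tmem270, Hipk3, Nfix and 1700001L05Rik had no other circle. The circle of Tex14 held 93.4% of its gene's circle counts, that of Pwwp2a 90.6%, and those of Zfp609 and Ep300 48.4% and 49.5%.

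**Figure D3:**
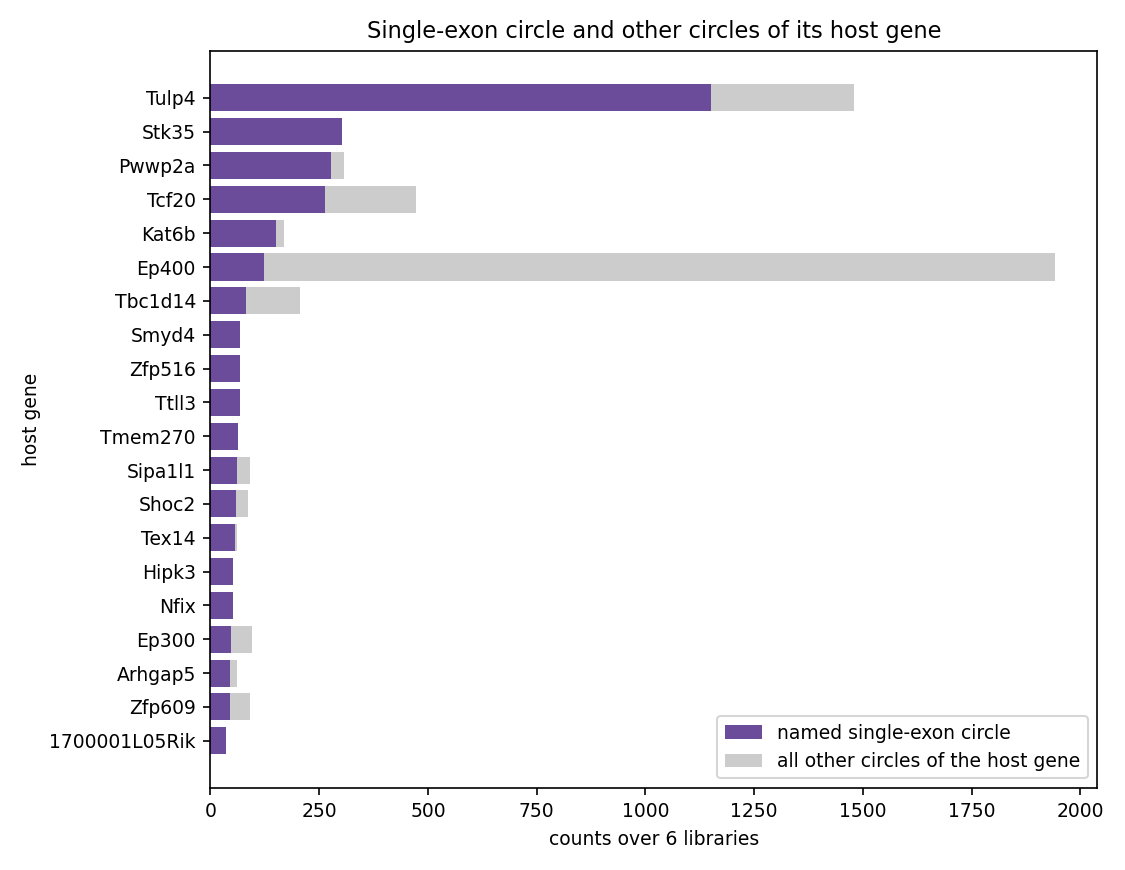
Counts over the 6 libraries of the 20 most counted single-exon circles (purple) and of all other circles of the same host gene (grey, stacked). In 8 of the 20 rows there is no grey bar, and the longest grey bar is that of Ep400, whose single-exon circle holds 6.33% of the counts.

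More than 1 single-exon circle was listed for 12 hosts, 26 circles in all. In 4 hosts some of them began at the same base and ended at different ones, and in 0 hosts did they end at the same base. In Pwwp2a, circles of 944, 1034 and 1683 bases shared the 5′ end and had 278, 4 and 2 counts. In Srsf1, a splicing factor of the SR family, circles of 1356 and 3063 bases shared the 5′ end and had 11 and 7 counts. In Tshz2, a zinc finger homeobox gene, circles of 2934 and 3061 bases had 28 and 13 counts. In Zkscan17, a zinc finger gene, those of 239 and 283 bases had 5 and 10 counts. The shared first base with differing last bases was thus seen both where 1 circle dominated, as in Pwwp2a, and where counts were of like size, as in Srsf1.

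In the other hosts with several, the circles were separate pieces of the gene. Tasor2 had 442 bases with 32 counts and 874 bases with 19. Chd4, a remodelling ATPase, had 160 and 176 bases with 4 and 2 counts, and Akap12, an anchoring protein, had 153 and 198 bases with 14 and 2 counts. Malat1, a nuclear noncoding RNA, had 258 and 160 bases with 2 counts each, each in 1 knock-in library. Pieces of this size with 2 counts rest on little evidence.

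The level of single-exon circles was compared within each library with that of circles of several exons, as the log2 ratio of mean counts per circle. The ratio was 0.41, 0.36 and 0.25 in knock-in libraries and 0.37, 0.45 and 0.29 in wild-type libraries. It was above 0 in 6 of 6 libraries (mean 0.35 ± 0.0737 SD; exact two-sided sign-flip permutation p = 0.031, the smallest that 6 libraries allow). This difference rested on the highest circle: without the highest circle of each type the mean was 0.00749 (p = 0.844, exact sign-flip permutation test). Among circles of 200 to 1000 bases it was 0.0326 (p = 0.406, the same exact test). The log2 ratio of the share of circles detected was -0.0780, below 0 in 6 of 6 libraries, with p = 0.031 in the exact permutation test. Single-exon circles were thus detected slightly less often per library. All libraries were scored on the same listed circles, so these p-values measure agreement among libraries and not the spread among circles.

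The amount of single-exon circles did not differ detectably between genotypes. They made up 5.24%, 5.06% and 4.72% of circle counts in knock-in libraries and 5.04%, 5.33% and 4.82% in wild-type libraries. The means were 5.004% ± 0.266 in the knock-in and 5.06% ± 0.253 in the wild type (SD, n = 3 each), a difference of -0.0601 percentage points with an exact permutation p of 0.8. The 2 genotypes overlapped. The sign of this small difference changed under other settings, for example to 0.0882 without Tulp4 and to 0.0844 without replicate 3 of the knock-in.

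Against linear RNA the picture was similar. Single-exon circle counts per 1000000 mRNA counts were 45.6, 43.8 and 44.2 in knock-in libraries and 46.5, 41.3 and 39.9 in wild-type libraries. The mean was 44.5 ± 0.941 in the knock-in and 42.6 ± 3.49 in the wild type (SD, n = 3 each), a difference of 1.98 with an exact permutation p of 0.4. It was 0.631 without wild-type replicate 3, 1.35 without wild-type replicate 2 and 3.95 without wild-type replicate 1. Circles of several exons stood at 754 ± 36.6 in the knock-in and 706 ± 63.1 in the wild type (exact permutation p = 0.4). The number of single-exon circles detected was 138, 140 and 144 in knock-in libraries and 137, 120 and 130 in wild-type libraries. These counts did not overlap (exact permutation p = 0.1, the smallest possible). In circle counts, replicate 3 of the knock-in was the deepest library, and replicates 2 and 3 of the wild type were the shallowest. Replicate 1 of the wild type held 17306 circle counts, more than replicates 1 and 2 of the knock-in (16185 and 16350). The share of circles of several exons detected did not overlap either, at 52.8%, 52.9% and 58.3% in knock-in libraries and 52.3%, 49.3% and 49.4% in wild-type libraries. The part of depth in this difference was not tested.

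**Figure D4:**
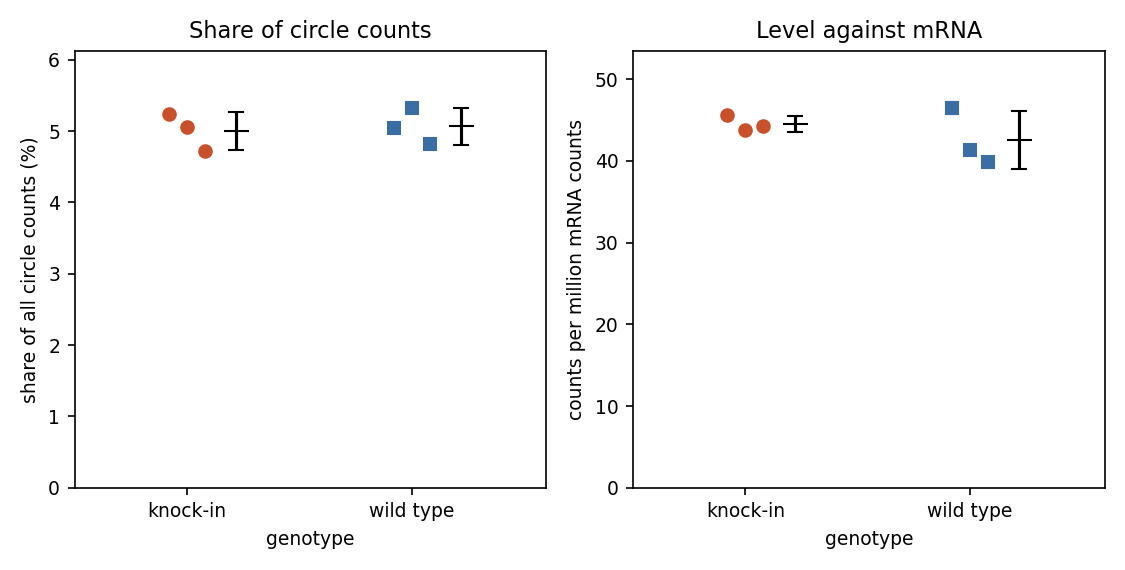
Share of all circle counts (%, left) and counts per 1000000 mRNA counts (right) held by single-exon circles in each library, knock-in as red circles and wild type as blue squares. Black marks are the mean and SD of 3 libraries, and in both panels the genotypes overlap.

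Circle by circle, 128 of the 271 single-exon circles had counts in at least 3 libraries and were tested with edgeR, and 0 were called at an adjusted p under 0.05. The lowest adjusted p was 0.980. Over all 3887 circles tested 0 were called, a background of 0%. DESeq2, the other tool run, called 0 too. At an unadjusted p under 0.05, edgeR gave 13 single-exon circles (10.2% of 128), against 4.73% of all circles tested, and DESeq2 gave 3 (2.34%, against 1.80%). With RLE scaling, table or mRNA totals, or a fit that is not robust, edgeR again gave 13 (10.2%, against 4.61% to 4.91%). The number fell when a library was left out. It was 3 without wild-type replicate 1 (2.34%, against 2.93%) and 5 without wild-type replicate 2 (3.91%, against 3.68%). It was 7 without wild-type replicate 3 (5.47%, against 3.83%) and 6 without knock-in replicate 2 (4.69%, against 3.55%). It was 8 without knock-in replicate 1 (6.25%, against 3.11%) and 10 without knock-in replicate 3 (7.81%, against 3.27%). With no filter there were 7 of 271 (2.58%, against 2.49%), and with a stricter filter (filterByExpr) 1 of 13 (7.69%, against 11.9%). The common biological coefficient of variation of circles was 43.4%, against 11.1% for mRNA genes, so in circles of few counts only large changes were within reach. The standard error of the log2 fold change was 0.13 in Tulp4, with 1150 counts, and 1.61 in Taf4b, with 7 counts.

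Of the 13, 11 (8.59%) were higher in the knock-in, against 2.68% of all circles tested, and 2 (1.56%) were lower, against 2.06%. In 8 of the 11 every wild-type library was at 0 and the knock-in libraries held 5 to 7 counts in all. Such a circle enters the test only when all 3 knock-in libraries have counts, so it had to differ, and these 8 carry no weight as a share. They were the circles of Csnka2ip (2, 2 and 3 counts in knock-in libraries), Tnks (1, 4 and 2), Qrich1 (3, 2 and 1), Zfyve9 (1, 4 and 1), Agbl2 (2, 1 and 3), 9930021J03Rik (2, 3 and 1), Crebbp (2, 2 and 1) and Nudcd3 (2, 1 and 2). Tnks encodes a tankyrase, Agbl2 a tubulin carboxypeptidase and Crebbp a histone acetyltransferase. A count of 0 over the wild-type libraries allows up to 3 counts, counting error only.

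Among the tested circles, 8 single-exon circles had no wild-type count and 0 had no knock-in count. Over all circles tested these numbers were 70 and 36. The knock-in libraries together were also deeper, with 52662 against 46100 circle counts in the wild type. Over all 271 single-exon circles, tested or not, 61 were seen in the knock-in alone and 57 in the wild type alone.

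With counts in both genotypes, 5 of 120 single-exon circles (4.17%) had an unadjusted p under 0.05, against 2.41% of all such circles. Libraries of the genotypes did not overlap in 10 of the 120 (8.33%), against 8.17%. Counting all 128, the libraries did not overlap in 18 (14.1%), against 10.7%. Of the 18, 14 (10.9%) were higher in the knock-in, against 5.69% of all circles tested, and 4 (3.12%) were lower, against 4.99%. The 8 circles with no wild-type count are among the 14 and could not overlap, so nothing is read from these shares. The median log2 fold change of the 128 was -0.08, also with the 8 circles at their lower bounds, and that of all circles tested was 0.03. Fitted values were above 0 in 59 and below 0 in 69. These counts and medians are descriptions, with no test against the other circles.

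The 5 circles with counts in both genotypes and an unadjusted p under 0.05 differed in kind. Lrrc37a, a leucine-rich repeat gene, had a circle of 1739 bases with 11, 9 and 8 counts in knock-in libraries and 1, 2 and 2 in wild-type libraries. The genotypes did not overlap, and the log2 fold change was 2.25 ± 0.78 (95% interval 0.72 to 3.78; unadjusted p = 0.00396, edgeR adjusted p = 0.980). When each library was left out in turn, the circle's log2 fold change lay between 1.91 and 2.45. That of Lrrc37a mRNA was 0.21 (edgeR adjusted p = 0.303).

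Tex14 encodes a protein of the intercellular bridges that join germ cells. Its circle (920 bases, chr11:87513942-87514861, plus strand) had 10, 16 and 16 counts in knock-in libraries and 6, 7 and 2 in wild-type libraries, with no overlap. The log2 fold change was 1.30 ± 0.54 (unadjusted p = 0.015, edgeR adjusted p = 0.980), while that of Tex14 mRNA was -0.05 (edgeR adjusted p = 0.848). The circle of 4930570E03Rik had 13, 1 and 11 counts in knock-in libraries and 1, 3 and 2 in wild-type libraries, which overlapped through the second knock-in library. Its log2 fold change was 1.81 ± 0.78 (unadjusted p = 0.021, edgeR adjusted p = 0.980).

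In the other direction, Shoc2, a scaffold of RAS to RAF signalling, had a circle of 930 bases (chr19:53987454-53988383, plus strand). It had 8, 6 and 7 counts in knock-in libraries and 13, 15 and 10 in wild-type libraries, with no overlap. The log2 fold change was -1.01 ± 0.50 (unadjusted p = 0.046, edgeR adjusted p = 0.980). Gabrb1, a GABA receptor subunit, had 0, 2 and 3 counts in knock-in libraries and 2, 14 and 3 in wild-type libraries. The 14 counts of the second wild-type library made up most of that difference, and the log2 fold change of -2.06 was -0.75 without that library.

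**Figure D5:**
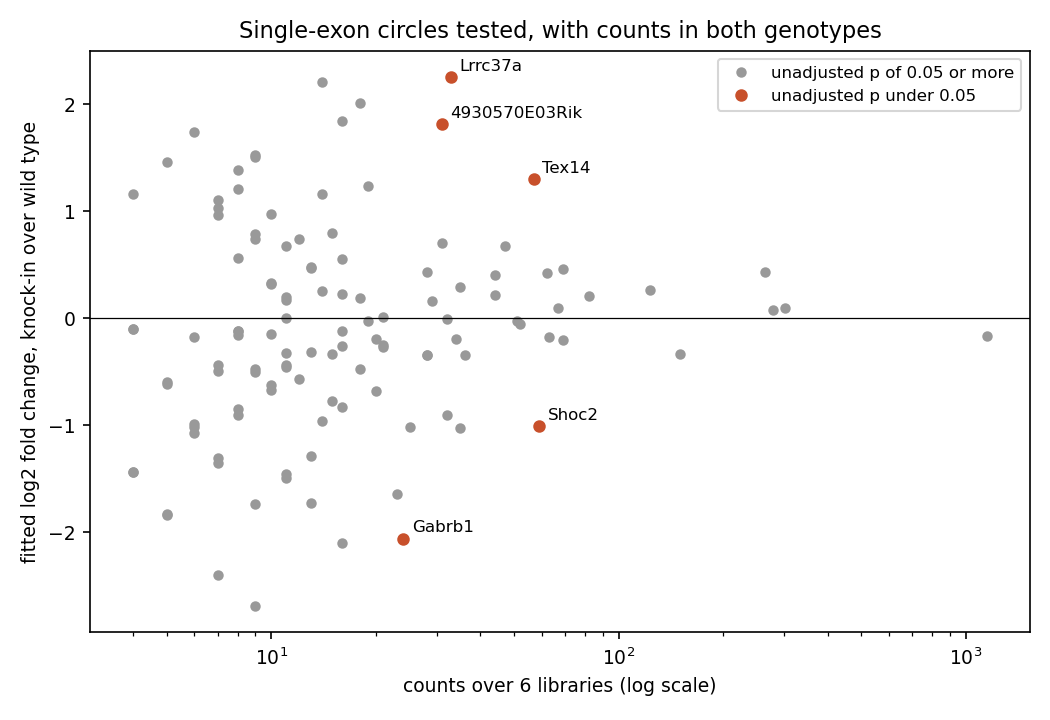
Fitted log2 fold change, knock-in over wild type, against counts over the 6 libraries (log scale) for the 120 single-exon circles tested with counts in both genotypes. The 5 circles with an unadjusted p under 0.05 are named, none passed after adjustment, and the spread narrows as counts grow.

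Among the 28 single-exon circles with at least 30 counts, fitted log2 fold changes ran from -1.03 to 2.25 with a median of 0.10, 16 above 0 and 12 below. Besides those named, the largest positive values were in Rest, a repressor of neuronal genes (5, 7 and 8 counts in knock-in libraries and 7, 4 and 0 in wild-type libraries; 0.70 ± 0.73), and Ep300, a histone acetyltransferase (17, 7 and 6 counts in knock-in and 5, 6 and 6 in wild-type libraries; 0.67 ± 0.57). The largest negative values besides Shoc2 were in Hmgxb3, an HMG-box gene (5, 3 and 4 counts in knock-in and 16, 6 and 1 in wild-type libraries; -1.03 ± 0.68), and Pvt1, a noncoding RNA (2, 4 and 6 in knock-in and 6, 9 and 5 in wild-type libraries; -0.91 ± 0.71). In Hmgxb3 the value rested on the first wild-type library, being -0.06 without it. The value of Ep300 was 0.01 without the first knock-in library, and that of Rest was 0.17 without wild-type replicate 3 and 1.42 without wild-type replicate 1.

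The authors' deposited table gives its own p-value for each circle. In it 9 of the 271 single-exon circles had a p under 0.05 (6 higher and 3 lower in the knock-in), 3.32% against 1.93% of all 7391 circles. The lowest adjusted p of a single-exon circle in the authors' deposited table was 1.

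Host genes were grouped by function. Of 55 genes of chromatin and transcription, 12 hosted a single-exon circle and 40 a circle of several exons. Of the 12 circles, 8 were tested, 0 were called, and 4 lay above and 4 below 0. Within this list, the most counted after Ep400 and Ep300 were Setd2, a histone methyltransferase, with 34 counts, Ash1l, another, with 23, and Chd9, a remodeller, with 21. Kat6b, Pwwp2a and Tcf20, described above, were not among the 55 listed genes. Ash1l had 2, 0 and 4 counts in knock-in libraries and 5, 7 and 5 in wild-type libraries, which did not overlap (unadjusted p = 0.065, edgeR adjusted p = 0.980).

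Of 29 genes of TFIID and its relatives, the complex that Taf7l belongs to, 1 hosted a single-exon circle and 10 a circle of several exons. That host was Taf4b, the gonad-enriched relative of Taf4. Its circle of 600 bases had 0, 0 and 1 counts in knock-in libraries and 2, 2 and 2 in wild-type libraries. The groups did not overlap, but with 1 knock-in count in all the difference is at the limit of counting, and it did not pass the test (unadjusted p = 0.136, edgeR adjusted p = 0.980).

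Of all 22298 genes in the mRNA table, 1.10% hosted a single-exon circle and 11.1% a circle of several exons, shares that include genes without reads. Of 75 genes of flagellum, cilium and centrosome, 5 hosted one, against 51 with a circle of several exons, and the 5 circles held 19 counts in all. They were in Akap3, a fibrous sheath protein, Cfap65, Cfap47, Pcnt and Cep128. Of 48 genes of meiosis and DNA repair, 3 did (Tex14, Shoc1, a crossover factor, and Atm, a damage kinase), against 23 with a circle of several exons. Of 61 genes of RNA binding and the piRNA pathway 5 did, led by Tdrd7, a germ granule protein, with 16 counts and Tut4, a terminal uridylyltransferase, with 11. Of 79 genes of the ubiquitin system 3 did, and of 85 kinases and phosphatases 5. No single-exon circle of these lists was called by edgeR. Tex14 had an unadjusted p under 0.05, as did Crebbp, which entered the test through the knock-in alone. These counts are descriptions, with no test of a list.

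The X chromosome, which carries Taf7l, held 5 single-exon circles (1.85%), against 0.792% of circles of several exons. They were in Zfp711, Klhl15, Mid1, Rlim and Cfap47 and had 2 to 5 counts each. None had counts in 3 libraries, so none was tested.

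The mRNA of the hosts was compared in the same libraries. Of 257 host genes 243 were tested, and 5 (2.06%) were called by edgeR, against 0.982% of all 15787 genes tested. All 5 were higher in the knock-in, against 0.88% of all genes tested that were higher. Akap12 had 43233, 46442 and 51928 mRNA counts in knock-in libraries and 33971, 32752 and 31511 in wild-type libraries, a log2 fold change of 0.43 ± 0.06 (edgeR adjusted p = 0.0133). The others were Ccdc96, a coiled-coil protein (0.43 ± 0.06, edgeR adjusted p = 0.0149), Leo1, a subunit of the PAF1 elongation complex (0.63 ± 0.11, 0.0314), Tex33, a testis-expressed gene (0.29 ± 0.05, 0.0398), and Hirip3, a histone chaperone (0.40 ± 0.08, 0.0473). The median log2 fold change of the hosts was 0.01 and that of all genes 0.00. Host genes had more mRNA counts, with a median of 8007 against 1881 over all genes tested, and the part of this in the calls was not tested.

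Calls of these host genes depended on the libraries. Leaving out each library in turn kept Akap12 in 3 of 6 fits, Ccdc96 in 2, Leo1 and Tex33 in 1 each and Hirip3 in 0. The log2 fold changes stayed at 0.40 to 0.45 in Akap12, 0.39 to 0.47 in Ccdc96, 0.56 to 0.69 in Leo1, 0.27 to 0.32 in Tex33 and 0.35 to 0.45 in Hirip3. Tex33 and Hirip3 also missed the threshold with RLE scaling (edgeR adjusted p = 0.0593 and 0.0553). The count of hosts called was 0 without knock-in replicate 3, wild-type replicate 2 or wild-type replicate 3, and 1 without wild-type replicate 1. Their circles were low. That of Akap12 had 2, 2 and 4 counts in knock-in libraries and 4, 2 and 0 in wild-type libraries, Hirip3's had 4 counts in 1 library of each genotype, Ccdc96's had 8 counts, Leo1's 7 and Tex33's 2. The circles of Hirip3 and Tex33 had counts in fewer than 3 libraries and were not tested, and none of the other 3 was called by edgeR.

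Genes that make or remove circles were also read in the mRNA table. Of 40 listed genes 39 were tested and 1 was called, against 0.982% of all 15787 genes tested. The gene called was Hnrnpm, which encodes an RNA-binding protein of splicing. Its mRNA was 72.2 ± 2.11 CPM in the knock-in and 57.2 ± 1.91 CPM in the wild type (SD, n = 3 each), with a log2 fold change of 0.33 ± 0.06 (edgeR adjusted p = 0.0442). The call was lost when any library was left out, with RLE scaling and with the replicate block. Qk, the quaking protein that promotes circles in human cells, differed by -0.05 ± 0.05, Adar, an editing enzyme, by 0.13 ± 0.11, and Dhx9, a helicase that unwinds paired introns, by 0.05 ± 0.07, none of which passed the test. Over the list, 21 values were above 0 and 18 below, from -0.20 in Dbr1 to 0.35 in G3bp1, with a median of 0.02. Neither Dbr1 nor G3bp1 passed the test (edgeR adjusted p = 0.709 and 0.221).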

How the data were processed

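The authors deposited whole-number counts per circle and per mRNA gene for each library, with RPM per circle and FPKM per gene, per the file headers. The authors' deposited tables also hold a mean signal per genotype, a log2 ratio of the means and, for each feature, a p-value with its adjusted form. Per the submitters' processing notes, reads were placed on mm10. Which circle caller and which test the authors used is not given in the sources used here.

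The members and the gene lists were chosen with earlier results of these data known. Counts as deposited were tested with edgeR 4.0.16 (R 4.3.3), quasi-likelihood with TMM scaling and Benjamini-Hochberg adjustment over all features tested. Circles needed counts in at least 3 libraries and used a robust fit, and genes passed filterByExpr (minimum count 10). DESeq2 1.42.0 was an alternative. Values per library were tested by exact permutation. Limits of a count of 0 cover counting error only, while intervals of fold changes come from the edgeR fit and hold the spread among libraries. mRNA depth was 17431309 to 21446420 counts. Libraries of a genotype differed beyond counting noise (chi-square per degree of freedom 1.49 to 1.96 in circles). The edgeR fits of circles and of mRNA genes were also run on simulated counts, with the outcome not given here.

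The rules for naming took circles called (0 here), the 20 highest by mean CPM, and the 5 largest fitted values in each direction among those with at least 30 counts. They also took the hosts with most single-exon circles, the 3 longest and 3 shortest, and those of well-described circle hosts and TFIID genes. Circles with an unadjusted p under 0.05 were named as well, outside these rules. The members of the other lists, and values set beside them, were picked after they were seen.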

Additional observations from a re-analysis of the deposited data

How the results depend on the processing

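No single-exon circle was called under any alternative run: RLE scaling, table or mRNA totals, no or a stricter filter, DESeq2, a fit that is not robust (added after seeing the data), the replicate block, or any library left out. The genotype difference in the share of circle counts was -0.0601 percentage points, 0.0135 over tested circles and 0.0882 without the highest circle, and -0.181 to 0.0844 with each library left out. The log2 ratio to circles of several exons was 0.00749 without the highest circle of each type, 0.0326 at 200 to 1000 bases, -0.0780 for detection and 0.607 over tested circles (0.35 over all). It was 0.336 to 0.375 with a library left out, where the exact permutation test of 5 libraries cannot go below p = 0.0625. Hosts called numbered 5 (of 155 genes called in all), but 3 with RLE (of 136), 13 with DESeq2 (of 456) and 0 to 5 with a library left out (of 13 to 147). Genes of circle making and removal numbered 1, and 0 with RLE, with the replicate block and with any library left out. Deviations of samples with the same number correlated at -0.06, 0.09 and -0.05 in circles and at 0.15, 0.08 and 0.04 in mRNA genes, where 5 of 6 samples correlated best with their own number. Since not every pair passed 0.1 and no label ties the numbers, the pairing is a hint from the data and not part of the design. The block left 0 circles called (2 single-exon circles at an unadjusted p under 0.05, 1.56% against 1.75% of all) and 7 hosts (of 178 genes). The causes of these changes were not tested. Depth limits what can be read: 143 of the 271 circles had counts in fewer than 3 libraries and were not tested. Circles of up to 300 bases averaged 4.81 counts over the 6 libraries.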
